A study of Mus musculus with 41 samples.

Results

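Cultured mouse germline stem cells that carry either of 2 lentiviral vectors were compared at 0 h, the time point before the vector's product was switched on. The populations were the Rhox10-ERT2 cells and the empty vector cells of an iSLAM-seq time course, a method that sequences metabolically labelled RNA at set times after a transcription factor is activated. The members were chosen by their labels alone, 2 libraries per vector at 0 h, which made 4 of the 41 samples of the series and 4 of its 24 iSLAM-seq libraries. The cells came from newborn C57BL/6 testes. All of them, the empty vector cells included, carried a lentiviral shRNA against endogenous Rhox10 and had been sorted on its green fluorescence. The Rhox10-ERT2 cells also carried a Rhox10-ERT2-mCherry fusion gene that responds to 4-Hydroxytamoxifen, and the empty vector cells carried ERT2-mCherry. Libraries were made with a kit that reads the 3′ ends of messenger RNAs. The labels call the 2 libraries of a group biological replicates without saying whether they came from separate infections or cultures, so the p-values measure only the spread between these libraries. Nor do they say whether a vector's cells are 1 clone or how many infections each population goes back to, and a difference between the vectors cannot be told apart from a difference between the 2 populations of cells.

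RHOX10 is a homeobox transcription factor encoded in a cluster of reproductive homeobox genes on the X chromosome, and it is known for a role in forming spermatogonial stem cells, the cells that sustain sperm production. An ERT2 tag is a mutated part of the oestrogen receptor that holds a fused protein outside the nucleus until it binds 4-Hydroxytamoxifen, so a fused factor is present but meant to be inactive before the drug is added. Cultured germline stem cells keep some features of spermatogonial stem cells, depend on GDNF signalling through the receptors RET and GFRA1, and can leave the stem cell state towards differentiation under retinoic acid or BMP signals.

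The 4 libraries held 9900971 to 11171101 counts. On a log2 scale of CPM (counts scaled to a common library size) the correlation was 0.963 between the empty vector libraries and 0.957 between the Rhox10-ERT2 libraries, against 0.950 to 0.953 across vectors. A chi-square over genes, divided by its degrees of freedom, is near 1 when 2 libraries differ by sampling noise alone; it was 4.03 and 4.69 within the vectors and 19 to 20 across them. No pair was therefore a library deposited again. No gene took more than 1% of a 0 h library, and all 37 mitochondrially encoded genes were listed at 0. Germ cell markers were present in both populations: Dazl, which encodes an RNA-binding protein of germ cells, was at 1227 and 1242 CPM with the empty vector and at 1058 and 1087 CPM with Rhox10-ERT2. Along the first principal component of all 24 libraries (14.7% of the variance), the empty vector libraries lay below 0 and the Rhox10-ERT2 libraries above 0 at each of the 6 time points. A library outside 0 h, empty vector at 0.5 h replicate 2, stood apart on the third component (7.21%). It takes no part in the 0 h values, but it does enter the shared estimate of spread. It also enters the difference at 0.5 h and the test of change from 0 h given below.

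Of 20642 genes tested, 2246 differed between the vectors at 0 h (10.9%, edgeR quasi-likelihood test, Benjamini-Hochberg adjusted p under 0.05). Of these, 1354 were higher with Rhox10-ERT2 (6.56% of those tested) and 892 were lower (4.32%). Among called genes the rises were larger than the falls, with a median log2 fold change of 0.73 for the higher and -0.43 for the lower genes. The median over all tested genes was 0.00435. The higher genes had a median of 39.8 CPM and the lower genes of 87 CPM. What part this gap in level has in the sizes of the called changes was not tested. Changes of 2-fold or more were seen for 378 of the higher and 94 of the lower genes. Without the empty vector libraries at 0.5 h in the estimate of spread, 3852 genes were called, 2050 higher (10%) and 1802 lower (8.79%), and 99.9% of the 2246 were among them. When any 1 of the 4 libraries at 0 h was left out (empty vector replicate 1 or 2, Rhox10-ERT2 replicate 1 or 2), 1076, 1128, 1327 and 1120 genes were called, in that order. An exact permutation test of a single gene over 2 against 2 libraries has 6 arrangements and cannot give a two-sided p below 0.333, so the calls rest on the spread shared by all genes and libraries. The libraries of the 2 vectors overlapped for 0 of the 2246 called genes; they also did not overlap for 51.7% of all tested genes, so a lack of overlap sets no called gene apart.

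**Figure D1:**
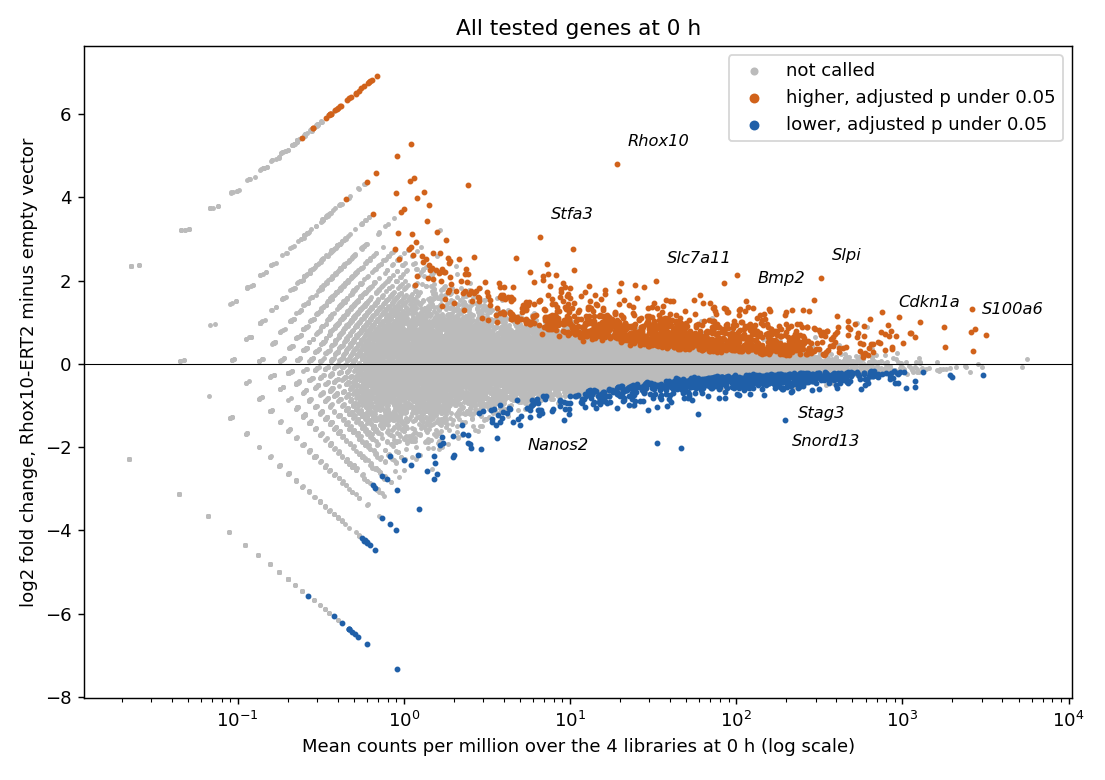
Each point is 1 of 20642 tested genes, with its mean CPM over the 4 libraries at 0 h on a logarithmic horizontal axis and its log2 fold change, Rhox10-ERT2 minus empty vector, on the vertical axis. Orange points are the 1354 higher genes, blue points the 892 lower genes and grey points the genes not called; the diagonal streaks at the left are genes with counts in few libraries, whose fitted fold changes depend on the prior count.

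Rhox10 itself showed the vector. It was at 1.51 and 1.16 CPM in the empty vector libraries (17 and 13 counts) and at 38.5 and 35.7 CPM in the Rhox10-ERT2 libraries (424 and 353 counts). That is a 27.6-fold difference (log2 fold change 4.79 with a standard error of 0.406, edgeR adjusted p = 2.4e-08) at the gene on the X chromosome (GRCm38, chrX:38066475-38071691, plus strand). The counts do not say whether a read came from the fusion or from the endogenous gene. The authors' CUT&Tag table, made with tagged RHOX10 in other cultures, places a peak of score 83.9 at 174 bases from the start of this gene.

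The other marker genes of the comparison were also higher with Rhox10-ERT2. S100a6, which encodes a small calcium-binding protein, was at 1933 and 1901 CPM with the empty vector and at 3305 and 3205 CPM with Rhox10-ERT2 (log2 fold change 0.76, with an error of 0.040 on that scale, edgeR adjusted p = 3.48e-11). Cdkn1a, which encodes the cell cycle inhibitor p21, went from 557 and 563 CPM to 1088 and 1048 CPM (log2 fold change 0.93). Bmp2, which encodes a secreted BMP ligand, went from 54.5 and 65.9 CPM to 167 and 174 CPM (log2 fold change 1.5).

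Beside these markers, the rises of smallest p were Slpi, Nr4a2, Ereg and Fth1. Slpi encodes a secreted inhibitor of proteases and stood at 118 and 134 CPM with the empty vector against 495 and 552 CPM with Rhox10-ERT2, a 4.15-fold difference. Nr4a2, a nuclear receptor gene that responds quickly to stimuli, was at 121 and 131 against 302 and 311 CPM. Ereg, which encodes the EGF receptor ligand epiregulin, was at 151 and 144 against 367 and 351.5 CPM. Fth1, the heavy chain of the iron store ferritin, was at 1905 and 1980 against 3434 and 3562 CPM. The largest rises after Rhox10 among genes with a mean of at least 5 CPM were in genes of low level. Stfa3, a stefin that inhibits cysteine proteases, was at 2.13 and 0.711 against 9.91 and 13.8 CPM (log2 fold change 3.04). Ivl, which encodes the cornified envelope protein involucrin, was at 3.73 and 1.69 against 22.3 and 14.2 CPM (2.75). Sema6a, a membrane-bound semaphorin, was at 1.78 and 2.84 against 10.6 and 13.95 CPM (2.40). Without empty vector replicate 1 the values of Stfa3 and Ivl were 4.03 and 3.422, and over the 4 fits that left out a 0 h library they ran from 2.46 to 4.03 and from 2.29 to 3.422.

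The falls of smallest p reported here were Snord13, Stag3, Elavl2, Esrp1 and Atad2. Snord13, a small nucleolar RNA used in ribosomal RNA modification, was at 296 and 266 CPM with the empty vector and at 119 and 101 CPM with Rhox10-ERT2 (log2 fold change -1.35 with a standard error of 0.131, edgeR adjusted p = 1.92e-07). The kit reads 3′ ends of messenger RNAs, and which transcripts gave the reads at Snord13, and at Snord118 below, was not tested. Stag3, a cohesin subunit of germ cells, was at 263 and 263 against 159 and 168 CPM. Elavl2, an RNA-binding protein gene expressed in germ cells and neurons, was at 338 and 353.5 against 224 and 223 CPM. Esrp1, a splicing regulator of epithelial cells, was at 185 and 183 against 103 and 118 CPM, and Atad2, a chromatin-bound ATPase linked to E2F, was at 386 and 375 against 240.4 and 260.3 CPM. Among genes with a mean of at least 5 CPM the largest falls beside Snord13 were Nanos2, an RNA-binding protein gene that keeps male germ cells undifferentiated, from 8.97 and 5.78 to 3.09 and 2.22 CPM (log2 fold change -1.46), the homeobox gene Barhl2 (-1.34) and the small nucleolar RNA Snord118 (-1.27). Each of these last 3 lost its call in 2 of the 4 fits that left out 1 library at 0 h (edgeR adjusted p up to 0.0993, 0.0646 and 0.260).

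**Figure D2:**
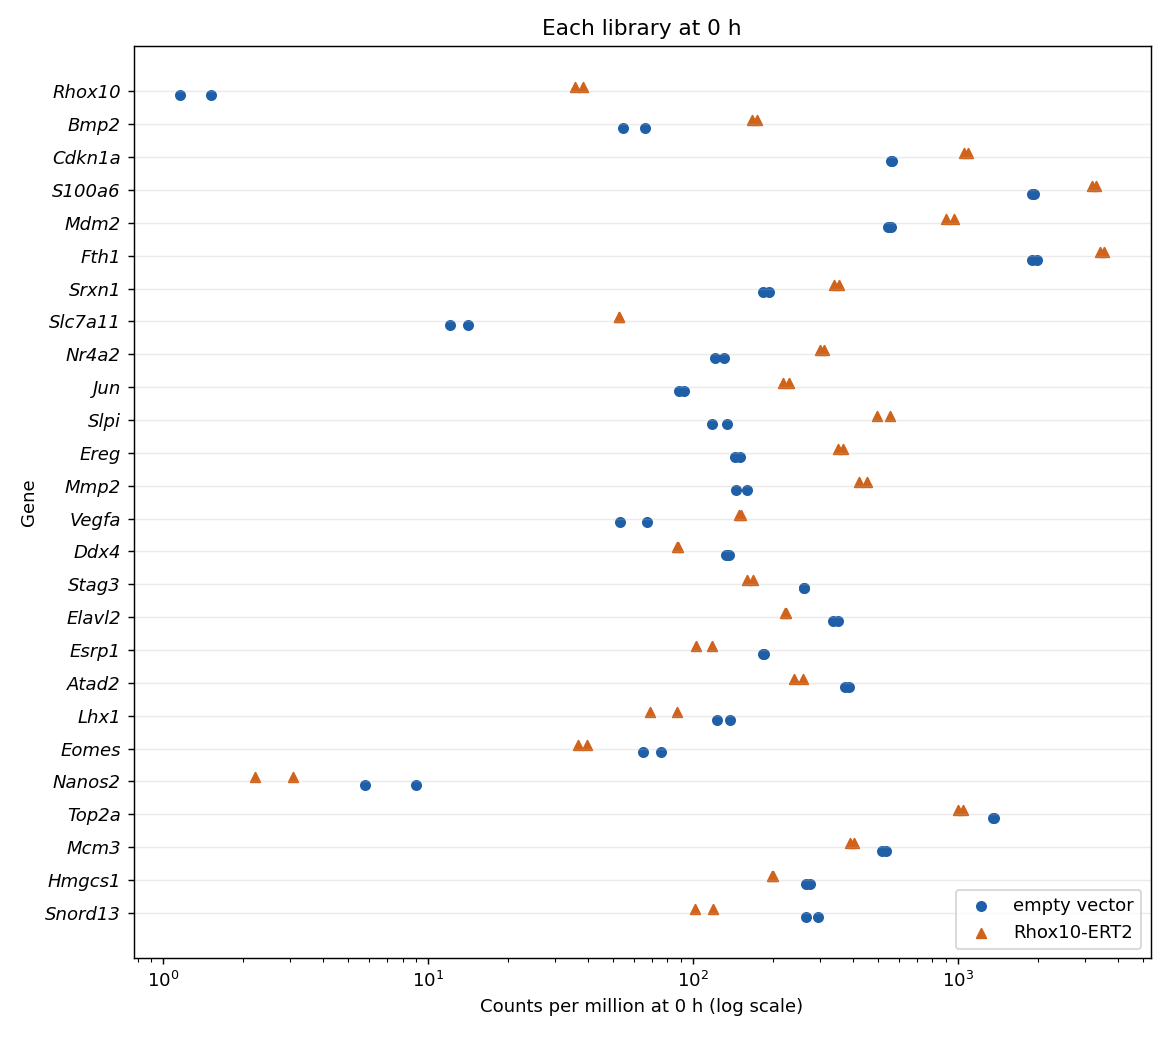
Each row is a gene and each point 1 library at 0 h, on a logarithmic axis of CPM; blue circles are the 2 empty vector libraries and orange triangles the 2 Rhox10-ERT2 libraries. Rhox10 shows the widest gap, from 1.16 and 1.51 CPM to 35.7 and 38.5 CPM.

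Several genes of the germ line were lower with Rhox10-ERT2. For each list count at 0 h from here on, the shares over all tested genes were 6.56% higher and 4.32% lower. Of 21 tested spermatogonial stem cell genes, 9 were lower and 0 higher, with a median log2 fold change of -0.29, and of 12 general germ cell genes 5 were lower and 1, the integrin gene Itga6, was higher, with a median of -0.24. Ddx4, the germ cell RNA helicase also called VASA, fell from 133 and 137 CPM to 87.6 and 86.8 CPM (log2 fold change -0.63, edgeR adjusted p = 5.18e-05). Piwil2, a protein partner of piRNAs, fell from 234 and 203 to 164 and 158 CPM. Dazl was not called (-0.20, edgeR adjusted p = 0.307), but was called lower without the empty vector libraries at 0.5 h (edgeR adjusted p = 2.75e-05), with the 4 libraries at 0 h alone (0.00465) and with no low-count filter (0.0155). The other falls of that list were Mov10l1, Tdrd1 and Cdh1, at -0.35, -0.36 and -0.38. Among stem cell genes Eomes, a T-box factor of a subset of stem cells, fell from 64.5 and 75.5 to 39.8 and 36.9 CPM. Lhx1, a GDNF-responsive LIM homeobox gene, fell from 138 and 123 to 86.5 and 68.7 CPM, and the POU factor gene Pou3f1 fell from 515 and 492 to 379 and 390.4 CPM. Gfra1, the GDNF co-receptor, was at 45.2 and 46.9 against 27.4 and 32.4 CPM (log2 fold change -0.62), and the GDNF-induced factors Etv5 and Bcl6b were at -0.43 and -0.42. Zbtb16, which encodes the stem cell factor PLZF, was not called (-0.20, edgeR adjusted p = 0.206), but was called lower without the empty vector libraries at 0.5 h (edgeR adjusted p = 0.0257). In bulk libraries fewer cells of a type and less RNA per cell cannot be told apart. Of the genes in this paragraph Mov10l1 and Etv5 lost their calls in all 4 fits without a 0 h library, Tdrd1 and Itga6 in 3, Cdh1 and Bcl6b in 2 and Piwil2 and Gfra1 in 1.

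Genes of spermatogonial differentiation did not move in 1 direction. Of 11 tested, 3 were higher and 1 lower. Crabp1, which binds retinoic acid in the cytoplasm, rose from 331 and 328 to 622 and 596 CPM (log2 fold change 0.89, edgeR adjusted p = 2.86e-07). Upp1, a uridine phosphorylase gene, rose from 17.04 and 19.3 to 39.8 and 40.1 CPM. Stra8, a retinoic acid target at the entry to meiosis, rose from 83.1 and 67.5 to 116 and 113 CPM but lost its call without empty vector replicate 2 (edgeR adjusted p = 0.0745). Sohlh1, a transcription factor of differentiating spermatogonia, was lower (-0.55; call lost in all 4 fits without a 0 h library), and Kit, the receptor that marks these cells, was not called (0.25). Of 28 tested meiosis genes 5 were lower and 0 higher: Stag3, Tex11, a meiotic crossover gene on the X chromosome (219 and 224 against 163.5 and 173 CPM), the cohesin gene Smc1b (-0.31) and the synaptonemal complex genes Syce1 (-0.28) and Syce2 (-0.30). Of these 5 only Stag3 kept its call in all 4 fits that left out a 0 h library.

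Markers of somatic cells were examined in the same libraries. All 23 fibroblast markers passed the filter on low counts, and 14 were higher with Rhox10-ERT2 and 1, Col5a1 (-0.40), was lower, with a median of 0.51. Their summed level was 4369 and 4292 CPM with the empty vector and 6172 and 6115 CPM with Rhox10-ERT2. Mmp2, a matrix metalloproteinase, rose from 145 and 160 to 424 and 452 CPM (log2 fold change 1.52 with a standard error of 0.092, edgeR adjusted p = 1.58e-10). Twist2, a mesenchymal transcription factor gene, rose from 56.5 and 49.0 to 119 and 131 CPM, Prrx1, a homeobox gene of mesenchyme, rose from 78.8 and 81.4 to 146 and 140.0 CPM, and Col1a1, a collagen I chain, from 621 and 550.1 to 836 and 861 CPM. These markers rose in the libraries in which the germ cell markers above fell, from a summed 2685 and 2650 to 2310 and 2316 CPM for the 12 germ cell genes. The part that a changed share of fibroblast-like cells may have in the other differences was not tested. Of 11 Sertoli cell genes 7 were tested and 1, the stem cell factor gene Kitl, was higher (7.90 and 12.3 against 21.9 and 21.8 CPM), with a summed level of 306 and 313 against 376 and 352 CPM for the list. All 7 tested Sertoli genes were above 0, with a median log2 fold change of 0.35. Without the empty vector libraries at 0.5 h, 2 of the list were higher, when 10% of all tested genes were. The members Amh, Fshr and Rhox8 were at 0 in all 4 libraries. Of 8 Leydig cell genes 3 were tested and 0 called, with a summed level of 10.2, 12.62, 11.2 and 10.01 CPM. Of 11 endothelial and blood cell genes 8 were tested, and 1, the VEGF receptor gene Kdr, was lower (19.2 and 26.3 against 9.998 and 14.2 CPM); their summed level was 54.2 and 62.9 against 44.5 and 46.7 CPM, with the macrophage gene Adgre1 and the globin gene Hbb-bs at 0. Kitl lost its call without empty vector replicate 1, and Kdr without empty vector replicate 2 or Rhox10-ERT2 replicate 1.

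BMP and TGF-beta ligands act through paired receptors that phosphorylate SMAD proteins. Of 12 tested ligand genes 4 were higher and 0 lower with Rhox10-ERT2. After Bmp2 these were Inhbb and Inhba, which encode activin subunits and went from 63.8 and 59.5 to 102 and 118 CPM and from 93.1 and 90.9 to 138 and 148 CPM, and Tgfb2 (5.33 and 7.82 against 10.4 and 10.6 CPM). Of 15 receptor and SMAD genes 2 were higher, Tgfbr2 (30.1 and 29.0 against 62.8 and 55.0 CPM) and Tgfbr1 (0.51), and 2 were lower, the activin receptor gene Acvr2b (-0.35) and Smad2 (-0.34). Of 14 antagonist and target genes 5 were higher and 0 lower. Called or not, 11 of them were above 0 and 3 below. Grem1, a secreted BMP antagonist, rose from 261 and 254 to 434 and 451 CPM (log2 fold change 0.78). The inhibitory SMAD gene Smad7 rose from 45.0 and 41.4 to 60.1 and 61.0 CPM. The BMP target Id2 was also higher (0.54). Among members below 0 and not called were Smad6 (32.0 and 26.6 against 25.2 and 23.0 CPM) and Msx1 (23.3 and 22.2 against 19.5 and 18.8 CPM). Id3, another direct BMP target, was not called (0.10, standard error 0.191), at 363 and 378 against 392 and 403 CPM. The spread behind that error takes in empty vector at 0.5 h replicate 2, where Id3 was at 151 CPM against 355 CPM in replicate 1. Id3 was also not called without the empty vector libraries at 0.5 h, nor with the 4 libraries at 0 h alone. Bmp2, Inhba, Inhbb, Tgfbr2 and Grem1 kept their calls in all 4 fits without a 0 h library, while Tgfb2, Acvr2b, Smad7 and Id2 lost them in 3 and Tgfbr1 and Smad2 in 4.

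Targets of p53, the transcription factor that responds to DNA damage and other stress, were higher for 14 of 27 tested and lower for 0, with a median of 0.43. Mdm2, the ubiquitin ligase that degrades p53, rose from 544 and 557 to 899 and 967 CPM (log2 fold change 0.76 with a standard error of 0.063, edgeR adjusted p = 1.83e-08), and Ccng1, a cyclin gene induced by p53, rose from 238 and 232 to 385 and 418 CPM. Alongside Cdkn1a, the cell cycle inhibitor genes Cdkn2b (55.7 and 53.9 against 103 and 101 CPM) and Cdkn2a (487 and 418 against 777 and 652 CPM) were the 2 higher members of a list of 35 cell cycle and replication genes, of which 11 were lower. Top2a, the DNA topoisomerase of dividing cells, fell from 1349 and 1365 to 1041 and 1001 CPM (-0.41). Mcm3, a subunit of the replicative helicase, fell from 534.5 and 515 to 391 and 406 CPM (-0.40), and Rrm1, a subunit of ribonucleotide reductase, from 257 and 253 to 168 and 196 CPM. The helicase genes Mcm2, Mcm5, Mcm6 and Mcm7 were lower by log2 fold changes of -0.35, -0.56, -0.39 and -0.38, and the proliferation marker gene Mki67 was at -0.37. The median of the 35 was -0.17. Without a 0 h library Cdkn2b and Mcm7 lost their calls in all 4 fits, Mki67 in 3 and Cdkn2a, Mcm2 and Mcm6 in 2.

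Promoter sequence is shown for 2 of these helicase genes because both fell and both hold E2F letters (TTTNGCGC, both strands) upstream of the start. Mcm3 and Mcm7 also fell and also hold these letters in their promoter windows, but are not shown. E2F factors switch replication genes on at the entry to S phase. The sequences are from RefSeq on the GRCm38.p6 build, 5′ to 3′ on the gene's strand, with the matched letters in capitals. The Mcm5 stretch is chr8:75109331-75109392 (plus strand), with its first match 153 bases upstream of the start, and the Mcm6 stretch is chr1:128359720-128359840 (minus strand), with its first match 110 bases upstream. In both, the first run of capitals is 2 overlapping matches on opposite strands, and Mcm6 holds a further match nearer the start.
Mcm5: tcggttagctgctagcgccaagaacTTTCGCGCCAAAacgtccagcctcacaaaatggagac
Mcm6: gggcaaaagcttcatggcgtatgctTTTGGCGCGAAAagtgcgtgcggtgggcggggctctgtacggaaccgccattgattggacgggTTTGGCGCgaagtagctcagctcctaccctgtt

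Promoter windows of 300 bases (250 before and 50 after the start) were found for 12716 of the tested genes, 999 of the higher and 641 of the lower. The E2F letters were in 1.5% of the windows of higher genes, 4.84% of those of lower genes and 2.17% of all. Among 28 cell cycle genes with a window, 6 held them. The letters are a description of the windows and were not tested as binding sites.

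Of 28 tested genes of the antioxidant programme of the transcription factor NRF2, 19 were higher with Rhox10-ERT2 and 0 lower, with a median of 0.54 and a summed level of 6903 and 7103 CPM against 10210 and 10450 CPM. Srxn1, which encodes sulfiredoxin, the enzyme that repairs oxidised peroxiredoxins, rose from 193 and 184 to 356 and 341 CPM (log2 fold change 0.89 with a standard error of 0.059, edgeR adjusted p = 5.46e-10). Slc7a11, the cystine importer needed to make glutathione, rose from 14.1 and 12.1 to 52.4 and 52.5 CPM, a 4.00-fold difference. Nqo1, a quinone reductase, rose from 16.95 and 18.04 to 44.7 and 44.9 CPM, and Hmox1, which breaks down haem, from 104 and 85.3 to 201 and 170 CPM. Nfe2l2, the gene of NRF2 itself, was at 202 and 199 against 309.6 and 309.4 CPM. Fth1 belongs to the same list.

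The upstream stretches of Srxn1 and Slc7a11 are shown because both genes rose and each stretch holds a stress-factor motif more than 1 time. In Srxn1 (chr2:152105402-152105505, plus strand) the capitals mark AP-1 letters (TGANTCA, both strands), the first of them 102 bases upstream of the start. NRF2 and AP-1 read overlapping letters, and the antioxidant response element core (TGACNNNGC, both strands) can share bases with an AP-1 match. The promoter window of Srxn1 holds a core of this spelling, but the stretch shown does not. Neither AP-1 match here is part of a core so spelled. The second match is followed by gc (TGAGTCAgc) and differs from that spelling in 1 letter. Other spellings of the core were not searched. The authors' CUT&Tag table lists a RHOX10 peak of score 75.2 over this stretch (chr2:152105154-152105781). In Slc7a11 (chr3:50443628-50443704, minus strand) the capitals mark ATF4 composite letters (TGATGNAA, both strands), the first of them 66 bases upstream. ATF4 is a factor of the amino acid response.
Srxn1: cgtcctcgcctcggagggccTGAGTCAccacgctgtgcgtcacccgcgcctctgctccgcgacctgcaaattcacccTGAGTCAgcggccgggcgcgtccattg
Slc7a11: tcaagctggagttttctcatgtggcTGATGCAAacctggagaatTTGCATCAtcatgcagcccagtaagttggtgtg

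AP-1 letters were in 6.41% of the windows of higher genes, 2.96% of those of lower genes and 5.49% of all, and in 5 of 22 NRF2 list genes with a window. The antioxidant core was in 16.3%, 13.6% and 14.3%, and in 6 of the 22 NRF2 list genes. The ATF4 letters were in 3.4%, 1.72% and 2.33%, and in 4 of 20 genes with a window of the ATF4 and unfolded protein list. Homeobox letters (TAATTA) were in 1.5%, 2.18% and 2.74%, and cAMP response element letters (TGACGTCA) in 2.6%, 3.9% and 2.98%. Of 23 tested genes of the ATF4 and unfolded protein programmes 6 were higher and 1, the serine pathway gene Shmt2 (-0.46), was lower, with a median of 0.0424. The lower share was 4.35%, against 4.32% of all tested genes. The rises of smallest p in that list were Cebpb, a transcription factor of stress and differentiation (37.6 and 29.6 against 99.7 and 85.0 CPM), Vldlr, a lipoprotein receptor (17.2 and 16.4 against 37.8 and 32.0 CPM), and Chac1, which degrades glutathione (5.68 and 5.60 against 15.45 and 12.4 CPM). All 3 kept their calls without any 1 of the 0 h libraries, and Shmt2 lost its call in 2 of the 4 fits.

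Immediate early genes, which are transcribed within minutes of a growth or stress signal, were higher for 17 of 30 tested, with a median of 0.68, and lower for 1, Egr3 (126 and 140 against 90.5 and 95.6 CPM). Jun, an AP-1 subunit, rose from 88.7 and 92.2 to 230.0 and 217.5 CPM (log2 fold change 1.31 with a standard error of 0.093, edgeR adjusted p = 1.74e-09), Fosb, another AP-1 subunit, from 66.2 and 64.8 to 173 and 164 CPM, and Fos from 190.0 and 192 to 249 and 261 CPM. Ier5, a stress-induced regulator, rose from 99.7 and 92.4 to 203 and 205 CPM. Fos lost its call in 2 of the 4 fits without a 0 h library. Of 15 genes of ERK feedback, which dampen growth factor signalling, 4 were higher and 0 lower: Phlda1 (263 and 242 against 547 and 563 CPM), the EGF receptor inhibitor Errfi1 (87.0 and 99.25 against 139 and 145 CPM), the phosphatase Dusp10 (0.87) and Spry2 (0.37). Dusp6, the phosphatase most used as a readout of ERK, was not called (0.0830, standard error 0.225), at 343 and 331 against 358 and 356 CPM. The spread behind that error takes in empty vector at 0.5 h replicate 2, where Dusp6 was at 132 CPM against 374 CPM in replicate 1. Dusp6 was also not called without the empty vector libraries at 0.5 h, nor with the 4 libraries at 0 h alone. Dusp10 lost its call in 3 of the 4 fits without a 0 h library and Spry2 in all 4.

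A short stretch upstream of Jun is shown because Jun rose and its promoter holds the letters that JUN and ATF proteins are known to bind there (TGACATCA, both strands), here 45 bases upstream of the start in chr4:95052235-95052292 (minus strand). These letters were in 3.3% of the windows of higher genes, 1.72% of those of lower genes and 1.82% of all. Among 24 immediate early genes with a window, 2 held them.
Jun: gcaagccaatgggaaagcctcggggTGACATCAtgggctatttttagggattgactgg

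Of 14 S100 and annexin genes 9 were higher and 0 lower, with a median of 0.55. Beside S100a6 they included Anxa5, a phospholipid-binding annexin (156 and 173 against 298 and 341 CPM), and Anxa3 (47.7 and 42.5 against 74.8 and 70.6 CPM). Of 25 genes of the actin cytoskeleton and of YAP, a coactivator that responds to cell shape, 10 were higher and 1, the smooth muscle actin gene Acta2 (-0.48), was lower. Cald1, which encodes the actin-binding protein caldesmon, rose from 405 and 407 to 781 and 754 CPM (log2 fold change 0.92 with a standard error of 0.057, edgeR adjusted p = 2.41e-10), and the YAP-pathway genes Amotl1 and Wwtr1 rose by 0.75 and 0.45. The YAP targets Ccn2 (45.4 and 34.8 against 87.6 and 76.0 CPM) and Ccn1 (86.4 and 64.4 against 138 and 126 CPM) did not pass the test, with edgeR adjusted p = 0.279 and 0.237. Both were called higher without the empty vector libraries at 0.5 h (edgeR adjusted p = 8.14e-06 and 2.16e-05), with the 4 libraries at 0 h alone (0.000163 and 0.000415) and with no low-count filter (1.16e-09 and 1.12e-07). In empty vector at 0.5 h replicate 2, the library that stands apart, Ccn2 was at 2.05 CPM and Ccn1 at 13.5 CPM, against 57.1 and 87.2 CPM in replicate 1 at that time. Acta2 lost its call in all 4 fits without a 0 h library.

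Among metabolic genes, 9 of 24 of glycolysis and the hypoxia response were higher and 1, Aldoc (-0.49), was lower. Vegfa, the endothelial growth factor gene, rose from 66.8 and 53.05 to 151 and 149 CPM (log2 fold change 1.32), Ldha, lactate dehydrogenase, from 126 and 117 to 197 and 195 CPM, and Ndrg1, a hypoxia-induced gene, from 28.1 and 27.4 to 46.4 and 59.15 CPM. In contrast 6 of 23 genes of cholesterol synthesis and uptake were lower and 0 higher, with a median of -0.31. Hmgcs1, an early enzyme of the pathway, fell from 267 and 277 to 199.8 and 198 CPM (-0.45, edgeR adjusted p = 8.74e-05), and Insig1, a sensor that restrains the pathway, from 40.2 and 34.65 to 25 and 27 CPM. Without a 0 h library Aldoc lost its call in all 4 fits and Insig1 in 2.

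Sterol response element letters (TCACNCCAC, both strands), which SREBP factors bind when sterols are low, stood 137 bases upstream of the start of Hmgcs1, in a stretch shown because this gene had the smallest p of its list (chr13:119690189-119690247, plus strand). They were in 1.3% of the windows of higher genes, 0.624% of those of lower genes and 1.09% of all. Among 15 cholesterol genes with a window, 1 held them, Hmgcs1 itself.
Hmgcs1: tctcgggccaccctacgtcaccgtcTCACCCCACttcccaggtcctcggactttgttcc

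Of 38 interferon-stimulated genes 9 were higher and 3 lower at 0 h, with a median of 0.14. The shares were 23.7% and 7.89%, against 6.56% and 4.32% of all tested genes. B2m, the light chain of MHC class I, rose from 869 and 818 to 1469 and 1369 CPM and Ifi27 from 183 and 165 to 261.5 and 262.2 CPM. Ifit1 (54.4 and 57.0 against 84.9 and 83.1 CPM) and Ifit2 (3.82 and 2.31 against 7.999 and 6.98 CPM), whose proteins bind viral RNA, were higher as well. The 3 lower genes were Irf1 (-0.29), the antiviral GTPase gene Mx2 (11.1 and 11.5 against 5.45 and 6.77 CPM) and Oas1a (2.57 and 1.16 against 0.273 and 0.404 CPM). Of 27 imprinted genes 6 were higher (22.2%) and 2, Gnas (-0.67) and Slc38a4 (-0.28), were lower (7.41%). Meg3, a noncoding RNA of the maternal allele, rose from 128 and 137 to 231 and 246 CPM (log2 fold change 0.85), and Phlda2 and Peg10 rose by 0.56 and 0.83. Apart from B2m, Ifi27 and Meg3, each gene named in this paragraph lost its call in 1 to 4 of the 4 fits that left out a 0 h library, and without empty vector replicate 1 the value of Oas1a went from -2.43 to -1.75.

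**Figure D3:**
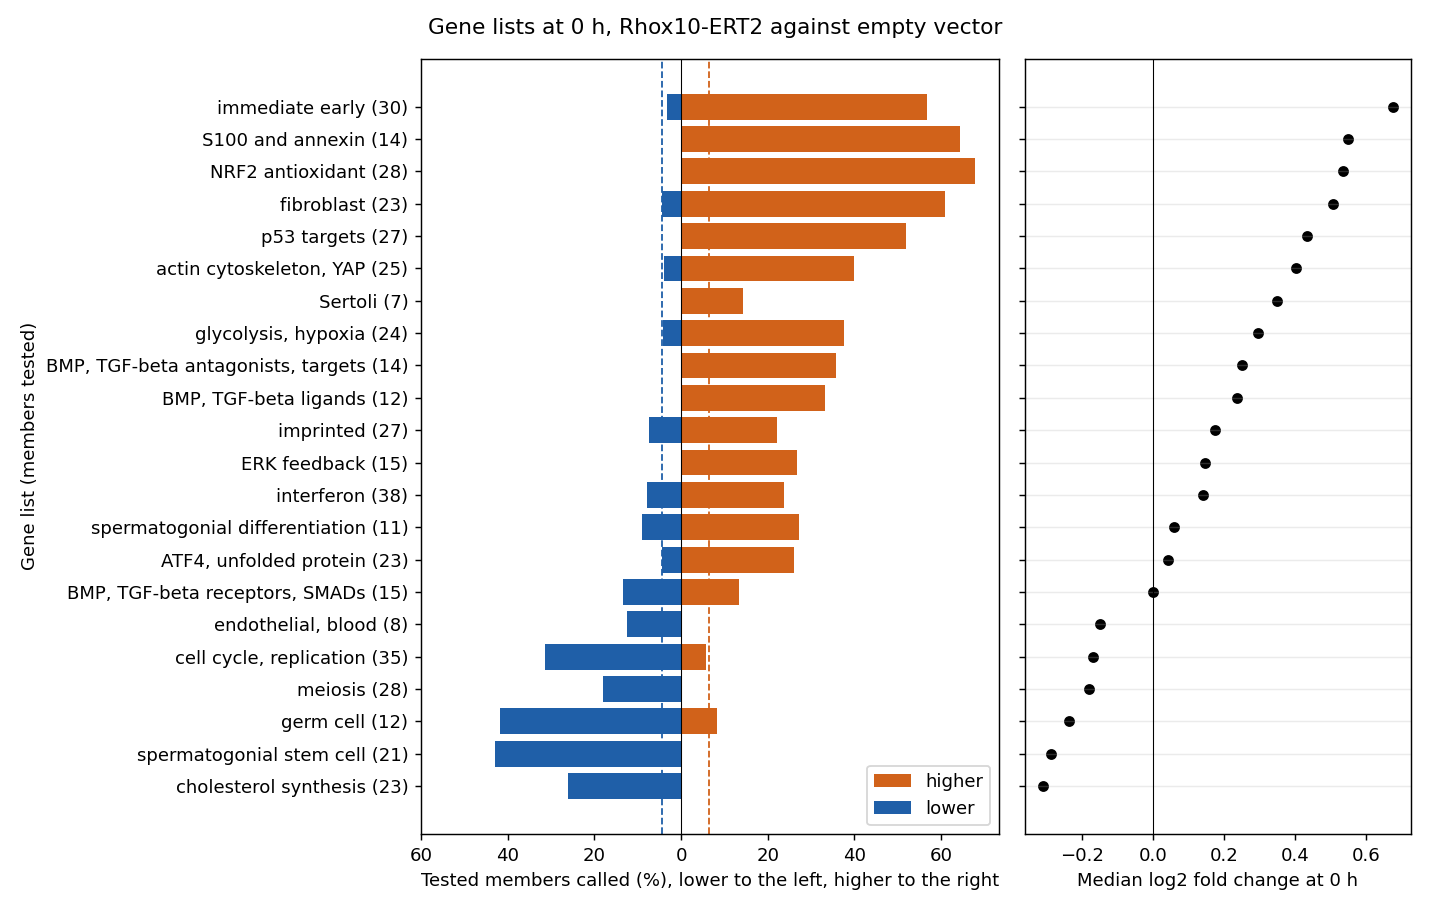
The left panel gives, for each gene list with at least 7 tested members, the percentage of tested members called higher (orange, to the right) and lower (blue, to the left) with Rhox10-ERT2 at 0 h; dashed lines mark 6.56% and 4.32%, the shares among all 20642 tested genes, and brackets give the members tested. The right panel gives the median log2 fold change of the tested members, from -0.31 for cholesterol synthesis to 0.68 for immediate early genes.

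The vector difference at 0 h was compared with that at 0.5, 1, 2, 4 and 8 h, which uses other libraries of the same 2 populations. Of the 1354 genes higher at 0 h, 97.2% had the same sign at 0.5 h, and the share was 97.7%, 95.2%, 88.8% and 83.8% at the following times. For the 892 lower genes these shares were 96.1%, 97.0%, 95.4%, 93.4% and 91.6%. Over all tested genes the shares ran from 64.1% at 8 h to 70.0% at 1 h. The median log2 fold change of the higher genes went from 0.73 at 0 h to 0.45 at 8 h and that of the lower genes from -0.43 to -0.38. A test of any change of the vector difference from 0 h called 494 of 20642 genes (2.39%), among them 203 of the higher and 41 of the lower genes, 10.9% of the 2246. The calls at 0 h and this test both use the 0 h libraries. The test also takes in the difference at 0.5 h, and so empty vector at 0.5 h replicate 2, the library that stands apart. It was not repeated without the empty vector libraries at 0.5 h.

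The differences of S100a6, Cdkn1a, Slpi and Mmp2 at 8 h were 0.64, 0.81, 2.12 and 1.40 on the log2 scale, and none of the 4 passed the test of change. That of Bmp2 grew from 1.5 at 0 h to 2.61 at 4 h, as the Rhox10-ERT2 libraries went from 167 and 174 CPM to 421 and 424 CPM while the empty vector libraries were at 65.8 and 72.3 CPM. Of 30 immediate early genes 21 passed the test of change, which 2.39% of all tested genes passed. Nr4a2 went from 1.29 at 0 h to -0.0243 at 8 h, Phlda1 of the ERK list from 1.14 to -0.26 and Fosb from 1.37 to -1.50. For Nr4a2 the log2 change from 0 to 8 h was -0.90 in the empty vector cells and -2.21 in the Rhox10-ERT2 cells. The activin genes Inhba and Inhbb, Tgfbr2 and Meg3 were at 0.17, 0.20, -0.0212 and -0.19 by 8 h. Inhba had first moved farther apart. At 4 h it was at 1584 and 1407 CPM with Rhox10-ERT2 against 353 and 332 CPM with the empty vector. Among stem cell genes the differences of Lhx1 and Bcl6b widened to -1.40 and -1.57, and that of Gfra1 was -0.78. Of the 38 interferon genes 33 were higher at 8 h, when 8.06% of all tested genes were, with a median of 1.87, and Oas1a and Mx2, lower at 0 h, were then at 1.90 and 2.51.

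**Figure D4:**
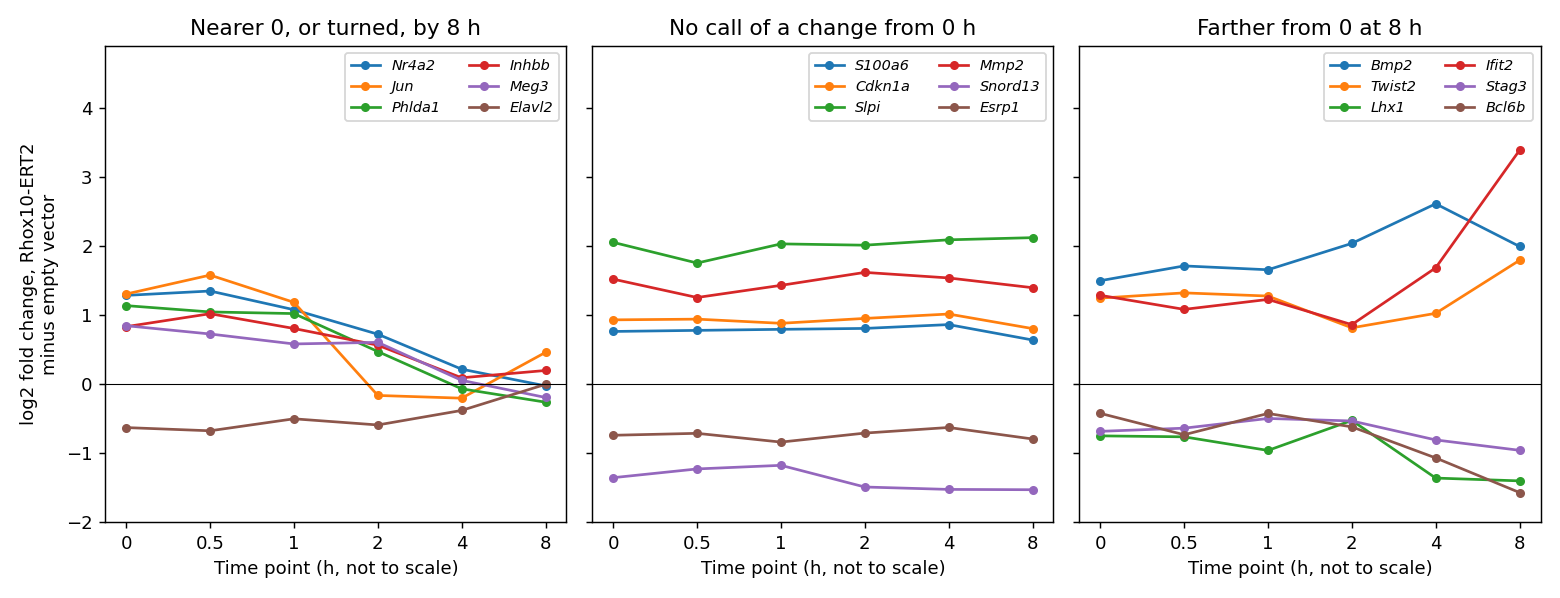
Log2 fold change, Rhox10-ERT2 minus empty vector, at the 6 time points (horizontal axis in h, not to scale) for 18 genes, each value resting on 2 libraries per vector. Genes of the left panel are nearer 0 or turned by 8 h (Nr4a2 from 1.29 to -0.0243), those of the middle panel passed no test of change from 0 h (Slpi from 2.05 to 2.12) and those of the right panel are farther from 0 at 8 h than at 0 h (Ifit2 from 1.29 to 3.39).

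By chromosome, genes with a mean of at least 10 CPM had a median log2 fold change at 0 h from -0.0690 to 0.0392 on every chromosome but chromosome 6, where the median was 0.0934 (476 genes). On chromosome 6, 65.1% of these genes were above 0, against 46.8% on the other chromosomes. In 14 of 15 segments of 10 Mb along it the median was above 0, the exception being 60 to 70 Mb with 8 genes (-0.0933). Chromosome 6 took 5.02% and 5.02% of the counts in the empty vector libraries at 0 h and 5.22% and 5.20% in the Rhox10-ERT2 libraries. It had the highest median of all chromosomes at each of the 6 time points, from 0.0599 at 2 h to 0.122 at 0.5 h. At 0.5 h the other chromosomes reached up to 0.0776. That time takes in empty vector replicate 2, the library that stands apart, where chromosome 6 took 4.955% of the counts against 5.059% in replicate 1. The shift is given as a description, with no test.

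**Figure D5:**
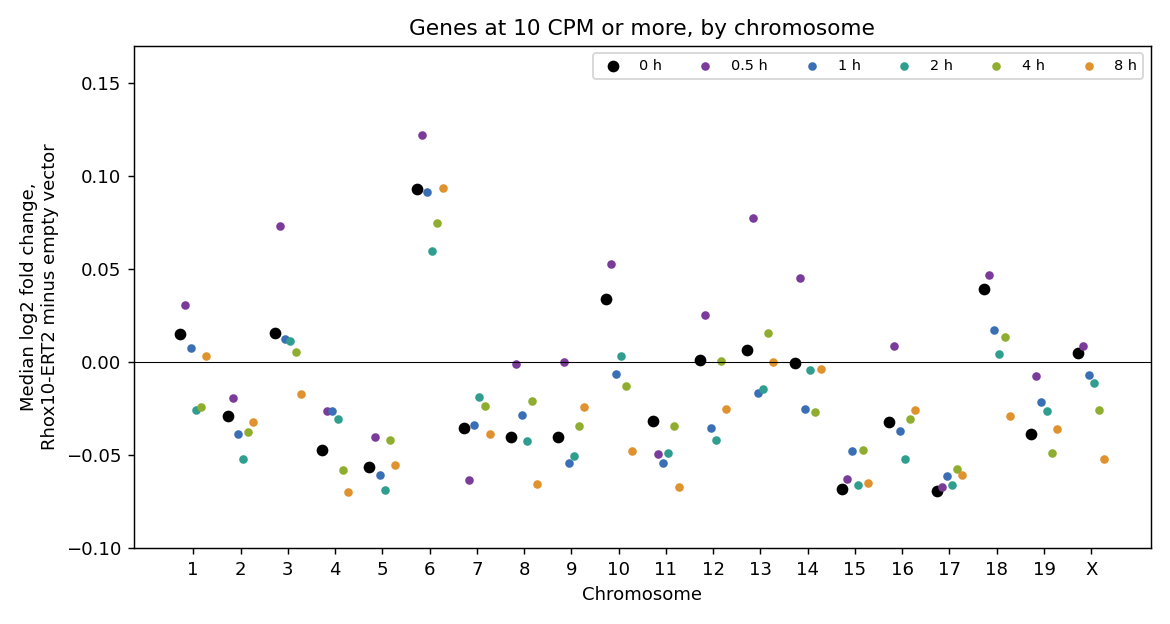
Median log2 fold change, Rhox10-ERT2 minus empty vector, of genes with a mean of at least 10 CPM, by chromosome, with 1 point for each of the 6 time points; larger black points are 0 h. Chromosome 6 is at 0.0934 at 0 h and lies above every other chromosome at each time.

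The authors' peak table, made with HA-tagged RHOX10 in other cultures of knocked-down cells, listed a peak within 3 kb of the start for 26.8% of the higher genes, 29.9% of the lower genes and 20.1% of all tested genes. In 4 bins of rising mean CPM the share was 4.42%, 12.2%, 28.9% and 34.9% of all tested genes. It was 8.2%, 14.4%, 28% and 31.5% of the higher genes and 6.25%, 4.62%, 30.7% and 33.6% of the lower genes, so the order of the 3 sets was not the same in every bin. None of these differences was tested. Named genes with such a peak included Nr4a2, Mdm2 and Srxn1 among those higher and Ddx4, Elavl2 and Eomes among those lower, while none was listed there for Bmp2, Cdkn1a, S100a6 or Slpi.

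The values were also set beside RNA-seq of germ cells sorted for an Oct4-eGFP reporter, which compared Rhox10-null with wild-type mice in 4 libraries each and shares no sample with the cultures. Of 1053 genes higher at 0 h that were tested there, 33.8% were higher and 7.5% lower in the libraries labelled Rhox10-null. Of 756 genes lower at 0 h, 8.86% were higher and 44.0% lower, against 18.5% and 18.5% of all 12562 genes tested in both. Ddx4, Stag3 and Pou3f1 were lower in both comparisons (log2 fold changes -0.91, -1.004 and -1.74 in the libraries labelled null), whereas S100a6 and Crabp1, higher with Rhox10-ERT2, were at -1.76 and -1.58 there. Fibroblast markers were higher in the libraries labelled null for 16 of 21 tested and germ cell genes lower for 11 of 12, the same directions as in the Rhox10-ERT2 cells, and the part of a changed share of other cells was not tested in either.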

How the data were processed

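Gene tables of iSLAM-seq and of RNA-seq hold raw read counts per gene that the authors deposited, per the file headers. Whether reads without T-to-C conversions were counted in iSLAM-seq is not given in the sources used here. The peak table deposited by the authors gives each merged CUT&Tag peak a score and a distance to the nearest start, per the file headers. The submitters' processing notes name STAR 2.5.2b, featureCounts, DESeq2, limma 3.42.2, Bowtie2 2.2.5, SAMtools and HOMER; a strand setting is not given in the sources used here. Gene positions are those of GENCODE M21 (GRCm38), which matched 55450 of 55536 gene identifiers.

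Counts were tested with edgeR 4.0.16 in R 4.3.3: quasi-likelihood fit of 12 group means over 24 libraries, TMM scaling, filterByExpr, Benjamini-Hochberg adjustment over all tested genes, threshold 0.05. A standard error is the size of the log2 fold change over the root of its F statistic. CPM used TMM-scaled library sizes. Alternatives were DESeq2 1.42.0 and its size factors, other filters, library totals, a replicate block and left-out libraries, with limma-voom (limma 3.58.1) chosen after the data were seen. The code was tested on simulated data. Replicate numbers did not pair the libraries (correlation of deviations 0.0362 at 0 h, -0.0112 to 0.0137 later).

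The comparison, its markers and its 23 gene lists were chosen with earlier results of these data known, so they are not independent of them. Named genes were the 4 markers; the 6 rises and 6 falls of smallest p and the 4 of largest change among calls whose mean reached 5 CPM and whose vectors did not overlap, without predicted or pseudogene symbols; up to 3 called members of smallest p per list; and the first members of a list. Members named because few of a list went 1 way, or to complete a pathway, were chosen after their values were seen. Some of the genes so selected are not reported here. Overlapping and antisense genes are uncertain.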

Additional observations from a re-analysis of the deposited data

Results flagged for a closer look

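For the genes listed here the vector difference changed between 0 h and the later times, by an F-test of the 5 differences from 0 h in edgeR, adjusted over all genes tested. Among immediate early and ERK feedback genes the adjusted p-values were 8.45e-09 for Nr4a2, 2.72e-09 for Jun, 1.21e-05 for Ier5, 1.88e-08 for Fos, 5.27e-10 for Fosb, 1.35e-09 for Egr3, 2.1e-09 for Phlda1 and 5.5e-05 for Spry2. Among ligands, receptors and their targets they were 5.94e-05 for Bmp2, 0.00342 for Inhbb, 2.72e-09 for Inhba, 0.0489 for Tgfbr2, 0.00541 for Smad7 and 8.55e-05 for Ereg. Among stress and antioxidant genes they were 0.00124 for Fth1, 0.00441 for Mdm2, 6.35e-06 for Srxn1, 0.0163 for Slc7a11, 2.57e-06 for Hmox1 and 0.00549 for Nfe2l2.

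Among germ line genes the adjusted edgeR p-values of the change were 0.0322 for Stag3, 0.000174 for Elavl2, 0.000924 for Lhx1 and 6.13e-05 for Bcl6b. Among interferon genes they were 0.00611 for Ifit2, 6.92e-08 for Ifit1, 0.0381 for Irf1, 0.0111 for Oas1a and 7.42e-08 for Mx2. Among metabolic genes they were 0.00018 for Hmgcs1, 0.00197 for Insig1, 0.00305 for Vegfa and 2.67e-07 for Ndrg1. The remaining values were 0.0211 for Anxa3, 0.0216 for Cald1, 7.05e-05 for Meg3 and 0.00703 for Twist2. Groups of 2 libraries were not tested for a library that stands apart. The F-test takes in empty vector at 0.5 h replicate 2 and was not repeated without it, so how far these p-values depend on that library was not tested.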

How the results depend on the processing

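The 2246 calls at 0 h became 3852 without the empty vector libraries at 0.5 h (2050 higher, 1802 lower), 472 when a 2-fold change was also required (378 and 94) and 1141 at an adjusted p under 0.01 (775 and 366). Leaving out each 0 h library gave 1076 to 1327 calls, 694 to 826 of them higher and 351 to 501 lower; the library left alone in its group is then assumed to vary like the other groups. DESeq2 size factors, library totals, other filters, the 4 libraries alone, DESeq2 and limma-voom gave 2223 to 2445 calls. With the replicate number as a replicate block there were 2314 calls, and with the block nested in time 1846. The 494 genes that changed from 0 h became 1002 without the filter on low counts and 835 with DESeq2, 502 with the block and 348 with the block nested in time; the cause was not tested.

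No gene named above as called changed sign under any of these settings, but calls were lost beyond the left-out libraries. With the block nested in time 10 lost their calls (Syce1, Smad2, Acvr2b, Tdrd1, Cdh1, Acta2, Gnas, Tgfbr1, Id2, Tgfb2), without the filter on low counts 9 (Syce1, Slc38a4, Syce2, Acvr2b, Cdh1, Acta2, Itga6, Tgfbr1, Tgfb2), with the 4 libraries alone 4 (Cdh1, Oas1a, Id2, Tgfb2), with library totals 3 (Spry2, Tgfbr1, Tgfb2) and with limma-voom 3 (Gnas, Oas1a, Tgfb2). Leaving out 1 library at 0 h lowered the members higher from 19 to between 12 and 16 for the NRF2 list, from 14 to between 11 and 13 for p53 targets, from 17 to between 13 and 15 for immediate early genes and from 9 to between 2 and 4 for interferon genes. The members lower went from 9 to between 4 and 7 for stem cell genes, from 5 to between 1 and 3 for germ cell genes, from 6 to between 2 and 4 for cholesterol genes and from 11 to between 7 and 8 for cell cycle genes. Members higher also went from 10 to between 5 and 8 for actin and YAP genes, from 9 to between 4 and 8 for glycolysis and from 6 to 3 for ATF4 genes, and members lower from 5 to 2 for meiosis genes. Without the empty vector libraries at 0.5 h, 15 actin and YAP genes were higher and 13 stem cell, 7 germ cell and 10 cholesterol genes lower. Calls also rose over all tested genes in that setting, to 10% higher and 8.79% lower from 6.56% and 4.32%. Genes with few counts, and small differences such as those of meiosis genes, are limited by 2 libraries per group.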
